A study of Mus musculus with 27 samples.

Results

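Epiblastoids on day 4, sequenced as 1 library, were compared with the 3 long-term libraries of formative pluripotent stem cells (fPSCs), at passages P10, P20 and P30. These 4 samples are among 27 in the series and 19 with bulk RNA. A gene was a member where its day-4 level lay outside the range of P10, P20 and P30, which held for 8396 of 11127 genes tested, 75.5%. Epiblastoids are epiblast-like colonies that form from mouse embryonic stem cells (mESCs) embedded in Matrigel, a basement membrane gel. Per the labels, all 4 samples were wild type. Both media were N2B27 with bFgf2 at 12 ng/ml and Activin A at 20 ng/ml. Epiblastoids also received KSR (knockout serum replacement) at 1%. fPSCs received XAV939 at 5 uM in its place, an inhibitor of tankyrase that lowers Wnt/β-catenin activity. By the study's text, epiblastoids were derived from CMTI-1 mESCs and these fPSCs are of the CMT line. XAV939, KSR, passaging and time in culture therefore differ together between day 4 and fPSCs and cannot be told apart. The study asked what becomes of epiblastoids that are kept beyond day 3 without the inhibitor.

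At gastrulation, cells of the epiblast pass through the primitive streak, where Nodal, Wnt and Bmp signals meet, and leave the epithelium by an epithelial-to-mesenchymal transition (EMT). Streak cells that form anteriorly give the organizer and the definitive endoderm, and those that form more posteriorly give mesoderm. The formative epiblast before this step carries Pou5f1, Otx2, Utf1 and Pou3f1, and inhibition of Wnt holds epiblast cells in culture short of the streak.

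On day 4, 9 of 10 tested genes of the primitive streak, 8 of 9 of the organizer, all 7 of the definitive endoderm and 6 of 7 of the mesoderm were called higher than all 3 fPSC libraries (the rule is defined below), as were 8.78% of all genes tested. Of the tested genes, 6 of the mesoderm, 3 of the streak and 2 of the definitive endoderm reached 1 FPKM on day 4 alone. Such genes lie above the fPSC range by the filter itself, and 305 of all 590 of them were called higher. Cer1 was at 295 FPKM (fragments per kilobase, scaled to the number of mapped fragments) against at most 21.1, while Foxa2, Chrd and T differed less. Snai1, Fn1 and Cdh2, genes of EMT, were higher as well, while Cdh1 and most epithelial genes lay near their fPSC levels. Sox2, Utf1, Nanog and Pou3f1 were lower, and Pou5f1 was not called. Genes of glycolysis were also higher on day 4. All ratios are of log2(FPKM + 1), day 4 minus the mean of P10, P20 and P30, which shrinks the ratio of genes with few fragments.

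The label was checked on its 3 marker genes. Cer1, a secreted antagonist of Nodal (mm9, chromosome 4, 82527655 to 82531052, minus strand), was at 295 FPKM on day 4 and at 21.1 in P10, 10.2 in P20 and 2.73 in P30. Lhx1, a homeobox factor of the organizer (chromosome 11, 84331479 to 84338923, minus strand), was at 121 FPKM on day 4 and at 7.81, 5.53 and 1.54 in P10, P20 and P30. Utf1, a chromatin factor of epiblast and embryonic stem cells (chromosome 7, 147129688 to 147131011, plus strand), was at 68.6 FPKM on day 4 and at 460.5, 498 and 508. For all 3, day 4 lay apart from the fPSC range, above it for Cer1 and Lhx1 and below it for Utf1.

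Day 4 is 1 library, so no test was made and no spread can be given for it. An exact permutation test of 1 library against 3 cannot go below a one-sided p of 0.25. By rank alone, a library like the other 3 would lie above their range with a probability of 0.25, and below it with the same. A place outside the range is thus by itself weak evidence of a difference. The 3 fPSC libraries are passages of the same line, so their spread is that between passages. In bulk RNA, fewer cells of a type and less RNA per cell cannot be told apart.

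Promoters are shown for the 4 genes of the streak and organizer lists with the largest ratios, at 10 FPKM or more on day 4, that have an entry in RefSeq's promoter table (GRCm38.p6), to show the sequence at the leading genes of these lists. Mixl1 is named only. Each run holds the 250 bases before the start site, 5′ to 3′ on the gene's strand, and capitals mark matches on either strand to CTTTGA (TCF/LEF core), AGGTGT (T-box core), CAGGTG (an E-box of the kind Snai1 binds) or TAATCC (bicoid-type homeodomain, as of Gsc and Otx2). The positions are chr7:79793591-79793840 for Mesp1, chr4:82885152-82885401 for Cer1, chr19:30549497-30549746 for Dkk1 and chr11:84525535-84525784 for Lhx1, all on the minus strand.
Mesp1: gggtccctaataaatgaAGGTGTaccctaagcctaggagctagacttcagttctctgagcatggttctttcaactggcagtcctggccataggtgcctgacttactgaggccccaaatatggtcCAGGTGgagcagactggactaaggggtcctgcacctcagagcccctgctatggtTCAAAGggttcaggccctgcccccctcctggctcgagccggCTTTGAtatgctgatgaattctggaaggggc
Cer1: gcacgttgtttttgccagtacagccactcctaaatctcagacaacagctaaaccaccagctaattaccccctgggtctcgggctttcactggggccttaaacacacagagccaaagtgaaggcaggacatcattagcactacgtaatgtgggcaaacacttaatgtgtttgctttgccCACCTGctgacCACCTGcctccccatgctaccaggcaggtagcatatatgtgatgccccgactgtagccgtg
Dkk1: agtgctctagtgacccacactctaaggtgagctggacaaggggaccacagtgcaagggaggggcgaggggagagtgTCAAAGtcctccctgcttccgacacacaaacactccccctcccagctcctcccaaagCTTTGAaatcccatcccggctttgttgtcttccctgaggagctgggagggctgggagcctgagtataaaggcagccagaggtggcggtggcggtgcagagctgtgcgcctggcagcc
Lhx1: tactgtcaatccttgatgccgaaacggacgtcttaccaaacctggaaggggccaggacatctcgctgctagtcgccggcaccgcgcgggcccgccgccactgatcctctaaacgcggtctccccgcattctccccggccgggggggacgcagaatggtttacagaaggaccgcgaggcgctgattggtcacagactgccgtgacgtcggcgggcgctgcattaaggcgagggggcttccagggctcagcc
Mesp1 held 2 matches to CTTTGA, 1 to AGGTGT and 1 to CAGGTG. Dkk1 held 2 matches to CTTTGA, Cer1 held 2 to CAGGTG, and Lhx1 held none. CAGGTG and AGGTGT share 5 letters and overlap where CAGGTGT occurs. Among 27025 promoters of this length, 14.05% hold CTTTGA, 12.0% AGGTGT, 17.1% CAGGTG and 6.38% TAATCC. Of 689 genes called higher (defined below) with an entry, 11.47% hold CTTTGA and 10.9% AGGTGT, where 10.4% and 9.25% of the 8414 tested genes with an entry do. These shares lie close together, and a match is a description of letters, not a bound site.

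Tested were the genes for which 1 of the 4 libraries reached 1 FPKM, and 590 of them passed through day 4 alone. Day 4 lay above the fPSC range for 4945 genes (44.4%) and below it for 3451 (31.0%). To set apart larger differences, a gene was called where it lay outside the range and its ratio was 1 or more in size. By that rule 977 genes were called higher, 8.78% of those tested, and 339 lower, 3.05%. Just inside the limit were Mmp19 (ratio 1.00) and Slc6a9 (-1.003), and just outside it Acadvl (0.999) and Dnajc25 (-0.999). The median ratio of all genes tested was 0.09, so the middle of the distribution lay close to 0. The 3 fPSC libraries themselves spread over a median of 0.29 on the log2 scale, and for 381 genes (3.42%) by 1 or more.

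Large ratios were mostly of the higher kind. A ratio of 2 or more was reached by 189 genes called higher, and 32 were as far below. At 3 or more there were 64 and 3, and at 4 or more 25 and 0. Of the genes called higher, 305 were under 1 FPKM in all 3 fPSC libraries, and 51 of those called lower were under 1 FPKM on day 4. At 10 FPKM or more on day 4 or in the fPSC mean, 459 were called higher and 219 lower.

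**Figure D1:**
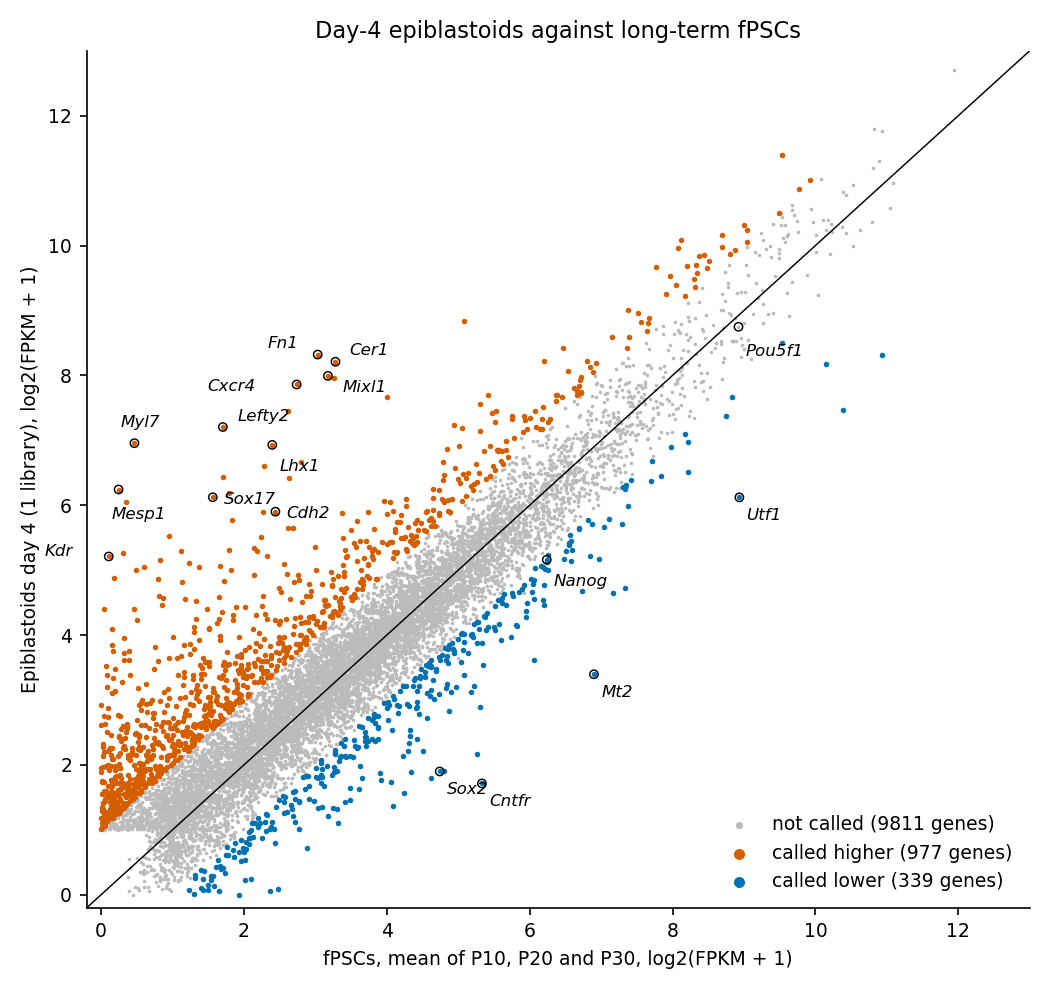
Level of each tested gene on day 4 (1 library, vertical) against the mean of fPSCs P10, P20 and P30 (horizontal), both as log2(FPKM + 1), with the diagonal as a line. The 977 genes called higher are orange, the 339 called lower blue and all others grey; Cer1, Mixl1, Fn1 and Cxcr4 stand far above the diagonal, and Utf1, Mt2 and Cntfr far below it.

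The files give no fragment counts, and depth was read from low values only in relative terms. Values of 1 to 3 fragments lined up best where day 4 was worth 0.29 to 0.30 less per fragment on the log2 scale, a depth about 1.22 to 1.23 times that of each fPSC library. In parallel, 10668 genes reached 1 FPKM on day 4 and 10034 to 10172 in fPSCs, and FPKM summed to 379498 against 323465 to 341577. RNAs without a poly(A) tail differed too: Rn7s2, a 7SL RNA, was at 341 FPKM on day 4 and 76.6 to 104 in P10, P20 and P30, and 3 of 9 tested members of that list were called higher. Rn7s2 was at 258 FPKM on day 3 and at 321 and 1718 in mESCs. It was far lower on day 2 (6.74) and in P1 (3.91), CMT P11 (1.51), 46C P24 (2.79), BVSC P14 (1.59) and ROSAmTmG P12 (1.21). These latter libraries, set beside day 4 further below, thus differ from it in RNA composition. The part of depth and RNA composition in the results was not tested. Fibroblast genes were nearly absent, with 3 of 13 tested, 1 called higher (Pdgfrb), Fap and Lum at 0 and a summed level of 13.01 FPKM on day 4 against 4.46 to 4.90. Of hematopoietic genes 1 of 9 was tested, Runx1, which was called higher, while Ptprc was at 0. Of trophoblast genes 2 of 8 were tested and none was called. Of 4 Y-linked genes 3 were tested and 1 was called higher, Eif2s3y, at 13.1 FPKM against 8.13, 8.24 and 1.85.

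The 12 genes with the largest ratios at 10 FPKM or more included Myl7, a heart gene, and Mesp1 and Kdr of early mesoderm. Myl7, an atrial myosin light chain, was at 123 FPKM on day 4 and at 0.11, 0.23 and 0.94 in P10, P20 and P30, a ratio of 6.49. Kdr, the Vegf receptor of early mesoderm and blood vessels, was at 36.05 FPKM against 0.0522, 0.134 and 0.0518 (ratio 5.10). Lmo1, a LIM-domain protein, was at 65.3 FPKM against 0.28, 0.56 and 0.04 (5.69). All 3 were thus close to absent from P10, P20 and P30. In mESCs, Myl7 was at 6.03 and 3.20 FPKM and Lmo1 at 5.38 and 6.92, while Kdr was at 0.44 and 0.30. Nodal signaling was in the same group, with its antagonist Lefty2 at 147 FPKM against 1.29, 2.97 and 2.81 (5.499) and its co-receptor Cfc1 at 85.3 FPKM against 5.00, 2.82 and 0.51 (4.73). Fgf3, a ligand of the streak, was at 37.5 FPKM against 0.20, 0.38 and 0.16 (4.95). Rps4l, a ribosomal protein S4 paralog whose reads can be shared with its copies, was at 173 FPKM against 16.9, 10.2 and 0.17 (4.82), and it was still higher on days 2 and 3 of the epiblastoids, at 445 and 414 FPKM. The others of the 12 belong to the lists that follow.

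Of 13 primitive streak genes, 10 were tested and 9 were called higher, 3 of them at 1 FPKM or more on day 4 alone. Their median ratio was 2.59, beside 0.09 over all genes. Mesp1, which opens the mesoderm and heart programme, was at 74.7 FPKM on day 4 and at 0.0527, 0.371 and 0.157 in fPSCs (ratio 5.996). Mixl1, a homeobox factor of the streak, was at 254 FPKM against 15.7, 6.97 and 4.57 (4.81). Sp5, a direct target of Wnt, was at 72.3 FPKM against 3.11, 2.26 and 2.09 (4.40). Each of these was above the highest passage by a wide margin. Factors that fPSCs already held at moderate levels differed less. Eomes, the T-box factor of the anterior streak, was at 145 FPKM against 29.6, 32.9 and 34.7 (2.13), T (Brachyury) at 38.0 against 16.5, 14.7 and 19.1 (1.14), and Fgf8, the streak ligand, at 201 against 75.1, 102 and 85.3 (1.20). Evx1, of the posterior streak, was at 29.3 FPKM against 1.44, 3.52 and 6.72 (2.78). Mesp2 and Tbx6, of the presomitic mesoderm, were at 8.20 and 6.74 FPKM, and under 1 FPKM in all fPSC libraries (3.12 and 2.40). Wnt3, the ligand that starts the streak, was the tested member not called, at 35.9 FPKM against 20.1, 24.4 and 23.6 (0.64).

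Of 11 organizer and anterior mesendoderm genes, 9 were tested and 8 called higher, with a median ratio of 3.19. Beside Cer1 (4.93) and Lhx1 (4.53), the homeobox factor Gsc was at 96.1 FPKM against 6.90, 4.09 and 1.87 (4.32). Dkk1, a secreted Wnt antagonist, was at 45.1 FPKM against 2.04, 1.04 and 0.165 (4.58), and Frzb, another, at 22.0 against 2.29, 1.55 and 0.924 (3.19). Hhex, of the anterior endoderm, was at 20.6 FPKM against 4.32, 3.33 and 1.19 (2.55). All were highest in P10 and lowest in P30 among fPSCs. That passage difference was widest for Foxa2, a forkhead factor, at 44.3, 20.0 and 5.24 FPKM in P10, P20 and P30 and 52.8 on day 4 (1.57). Chrd, a Bmp antagonist, was at 12.2 FPKM on day 4 and 8.57, 4.33 and 2.47 in fPSCs (1.238). Without P30, the ratios of Foxa2 and Chrd were 0.80 and 0.89, and neither was called.

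All 7 definitive endoderm genes were tested and called higher, 2 of them at 1 FPKM or more on day 4 alone, with a median ratio of 2.52. Cxcr4, a chemokine receptor, was at 231 FPKM against 7.99, 8.75 and 2.40 (5.12). Sox17, the endoderm factor, was at 68.7 FPKM against 3.57, 3.49 and 0.265 (4.56), and Gata6 at 38.4 against 1.82, 1.59 and 0.396 (4.18). Visceral endoderm, an extraembryonic tissue, shares some of these factors. Its defining markers Afp and Apoa2 were listed at 0 on day 4 and in P10, P20 and P30, and Ttr was at 0 on day 4 and at most 0.0275 FPKM in fPSCs. Of 12 listed genes, 4 were tested, with a median ratio of 1.20, and 2 were called higher, Lgmn (38.0 FPKM against 14.01, 13.4 and 13.6) and Hnf4a (1.76 against at most 0.0743). Rbp4 was above the range without a call (3.41 against 1.94, 1.46 and 0.517, ratio 0.99) and Apoa1 within it.

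Of 12 mesoderm genes 7 were tested, 6 of them through day 4 alone, and 6 were called higher (median 2.71). Among all 590 genes tested through day 4 alone, 305 were called higher. Pdgfra, a receptor of paraxial and extraembryonic mesoderm, was at 20.1 FPKM against 0.0354, 0.0524 and 0.0077 (4.35). Hand1, of lateral and extraembryonic mesoderm, was at 16.1 FPKM against 0.0354, 0.137 and 0.161 (3.95), and Foxf1 at 5.75 against at most 0.0553 (2.71). Other members were low on day 4, with Foxc2 at 1.56 FPKM (1.34) and Tbx20 at 1.41 (1.21) called higher, Tcf15 at 2.40 against 0.895, 1.86 and 1.43 (0.52) not called, and Meox1 at 0.0855, Isl1 at 0.013 and Osr1 at 0.00429 under the filter. Early neural genes did not join this pattern. Of 12 listed, 3 were tested, Irx3 was called higher (4.45 FPKM against 0.782, 1.08 and 0.791) and Sox3 lower (3.64 against 21.7, 28.1 and 17.0), and Sox1 and Pax6 were at 0.0114 and 0.000243 FPKM on day 4.

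**Figure D2:**
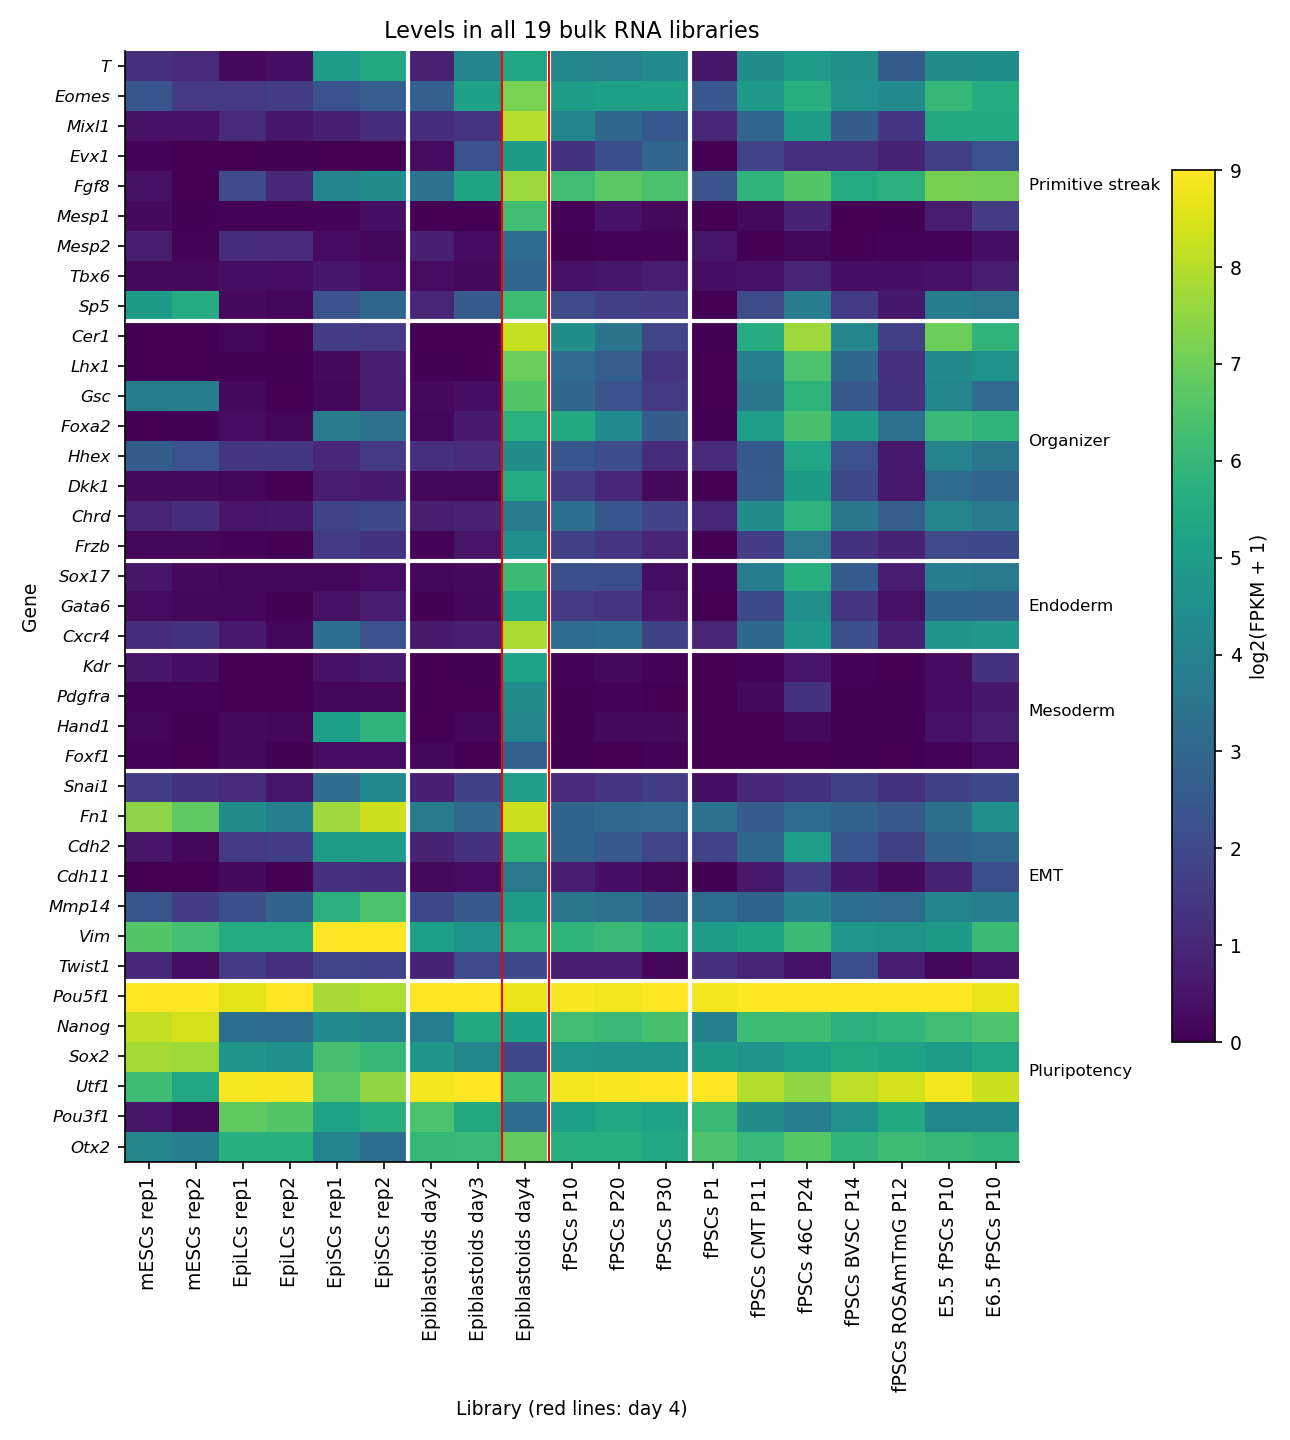
Colour gives log2(FPKM + 1), from 0 to 9, for genes of the streak, organizer, endoderm, mesoderm, EMT and pluripotency in all 19 bulk RNA libraries, 1 per column, with day 4 between red lines. Cer1 reads 295 FPKM on day 4 and 203 in fPSCs 46C P24. Mesp1, Kdr, Pdgfra and Foxf1 each have their highest value in the day-4 column, Foxf1 at only 5.75 FPKM.

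Of 10 EMT and mesenchymal genes, 7 were tested and 6 called higher (median 3.23). Fn1, the matrix protein fibronectin, was at 319 FPKM on day 4 and at 6.44, 7.38 and 7.81 in fPSCs, 44.2 times their mean of 7.21 ± 0.702 (SD, n = 3). Snai1, the repressor of Cdh1 that drives EMT at the streak, was at 32.2 FPKM against 1.12, 1.58 and 2.16 (3.68). Cdh2, N-cadherin, was at 58.8 FPKM against 6.48, 4.76 and 2.72 (3.46). For each of them day 4 lay well above the highest passage. Cdh11, a mesenchymal cadherin, was at 11.3 FPKM against 0.624, 0.283 and 0.0826 (3.23), and Mmp14, a membrane protease, at 30.3 against 10.5, 9.40 and 5.85 (1.75). The remaining EMT genes were low on day 4 or within the fPSC range. Twist1 was at 3.08 FPKM against 0.683, 0.663 and 0.0822 (1.496), Zeb2 at 0.949 against 0.423, 0.208 and 0.119, below the filter, and Snai2 and Zeb1 were also below it. Vim, vimentin, was at 61.9 FPKM, within the fPSC range of 51.3 to 66.8.

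All 19 epithelial genes were tested, and their median ratio was -0.04, with 2 called higher and none lower. Cdh1, E-cadherin, was at 151 FPKM on day 4 and at 198, 175 and 185 in fPSCs, a ratio of -0.30. Epcam was at 79.2 FPKM against 117, 129 and 112 (-0.58). Krt8, a keratin of simple epithelia, was called higher at 140 FPKM against 47.7, 47.9 and 24.6 (1.84), as was Ap1m2, an epithelial sorting adaptor, at 41.9 against 19.02, 21.6 and 17.8 (1.07). Of 14 genes of apical polarity, 2 were called higher, Tjp3 (1.25) and Podxl (1.01), and none lower. Ezr, ezrin, the apical marker of the lumen, was at 54.95 FPKM against 84.1, 82.0 and 75.1 (-0.54). Epithelial RNA was thus present on day 4 next to the EMT genes in this library of the whole culture. Of 10 basement membrane genes 4 were called higher, among them the collagens Col4a1 at 44.5 FPKM against 4.04, 4.52 and 2.75 (3.27) and Col4a2 at 23.1 against 2.202, 2.53 and 1.76 (2.93).

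**Figure D3:**
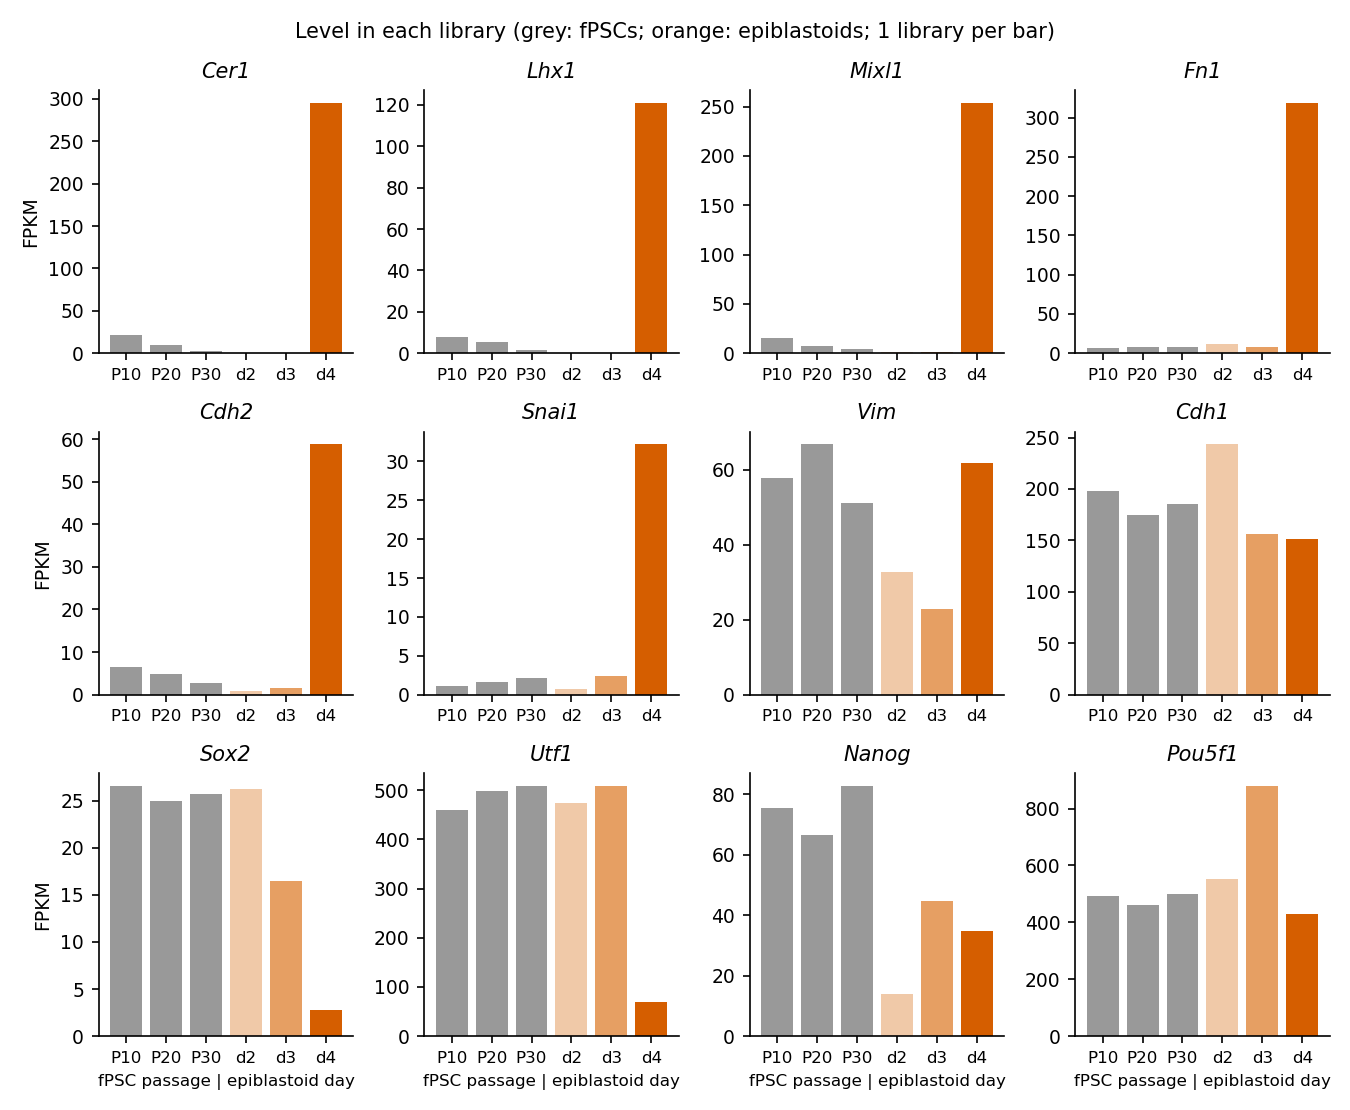
FPKM (vertical, from 0) of 12 genes in fPSCs P10, P20 and P30 (grey) and in epiblastoids on days 2, 3 and 4 (orange), 1 library per bar, with a scale of its own for each gene. Cer1, Lhx1, Mixl1, Fn1, Cdh2 and Snai1 are highest on day 4, Sox2 and Utf1 lowest on day 4, and Vim, Cdh1 and Pou5f1 differ less.

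The medium of day 4 lacked XAV939, and Wnt genes were looked at by role. Of 17 Wnt feedback and target genes, 13 were tested, 5 were called higher and none lower, and the median ratio was 0.64. The 5 were Dkk1, Sp5 and T, given above, and the Dishevelled antagonists Nkd1 (7.74 FPKM against 1.08, 1.52 and 1.598, ratio 1.87) and Nkd2 (2.12 against 0.570, 0.258 and 0.323, ratio 1.18, named after its values were seen). Axin2, the feedback gene most often read as a Wnt reporter, was at 20.2 FPKM against 12.2, 9.76 and 16.8 (0.64), above the range but not called. Several targets lay below the range without a call, namely Lef1 at 24.6 FPKM against 44.7, 44.6 and 54.7 (-0.93), Ccnd1 at 47.3 against 72.2, 78.6 and 70.1 (-0.63), Tcf7 (-0.31) and Znrf3 (-0.13). Apcdd1 lay above the range without a call, at 3.23 FPKM against 1.02, 1.33 and 1.03 (0.99), and Sp8 lay within the range (-0.39).

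Of 11 Wnt ligands, 5 were tested and 1 was called higher, Wnt5a, a ligand of the noncanonical branch, at 7.04 FPKM against 0.526, 0.708 and 0.690 (2.29). Wnt5b was at 5.86 FPKM against 2.39, 4.19 and 4.03 (0.62), and Wnt8a at 7.85 against 10.4, 14.03 and 24.2 (-0.88). Of 19 receptors and core components 18 were tested, with a median ratio of 0.03. The receptor Fzd8 was called higher (16.1 FPKM against 4.67, 3.69 and 2.17, ratio 1.97). The receptor Fzd10 (-1.10) and the repressor Tcf7l1 were called lower, the latter at 38.7 FPKM against 85.5, 89.5 and 113 (-1.28). Tnks and Tnks2, the tankyrases that XAV939 inhibits, were at 12.3 and 65.4 FPKM against at most 10.7 and 49.1, and were not called (0.42 and 0.57).

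In the Nodal and TGF-beta pathway 22 of 23 genes were tested, 6 were called higher and 1 lower, and the median ratio was 0.24. Among ligands and antagonists, Nodal itself was at 31.5 FPKM, within the fPSC range of 26.8 to 54.6. Lefty1, the second Lefty antagonist, was at 162 FPKM against 63.9, 73.4 and 53.8 (1.34), Gdf1 at 13.7 against 5.67, 2.60 and 2.77 (1.71) and Tgfb1 at 15.9 against 5.51, 9.50 and 5.24 (1.17). Fst, which binds Activin, was at 13.3 FPKM against 17.7, 16.7 and 18.3 (-0.38). At the membrane, the co-receptor Tdgf1 (Cripto) was at 299 FPKM against 84.8, 87.1 and 51.7 (2.03), and the decoy receptor Bambi at 6.23 against 1.02, 1.504 and 1.39 (1.66). The receptors Acvr1b (0.76), Acvr2a (-0.15), Acvr2b (0.28) and Tgfbr1 (0.15) were not called. Nor were the signal carriers Smad2 (0.21), Smad3 (0.38) and Smad4 (0.07) or their partner Foxh1 (0.26). The inhibitory Smad7 was called lower, at 7.09 FPKM against 24.01, 23.9 and 25.2 (-1.65), while the feedback genes Skil (-0.66) and Pmepa1 (-0.56) lay below the range without a call.

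Of 13 Bmp pathway genes 11 were tested, 8 were called higher and 1 lower, with a median ratio of 2.08. The ligands Bmp2, Bmp4 and Bmp7 were all called higher, Bmp4 at 10.1 FPKM against 0.648, 0.632 and 0.730 (2.73). Msx1 and Msx2, homeobox targets of Bmp, were at 32.0 and 8.07 FPKM and under 1 FPKM in all fPSC libraries (4.44 and 2.67). Id1, a target that blocks basic helix-loop-helix factors, was at 49.2 FPKM against 3.80, 6.16 and 6.83 (2.96). The member called lower was Id2, at 2.48 FPKM against 12.9, 14.05 and 8.47 (-1.85), named after its values were seen. The receptors Bmpr1a (-0.02) and Bmpr2 (-0.45) were not called.

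Of 16 Hippo-Yap genes 14 were tested, and calls went both ways, 3 higher and 2 lower, at a median of -0.07. Amot, an angiomotin that binds Yap at junctions, was at 203 FPKM against 17.6, 19.8 and 9.76 (3.67), and the DNA-binding partner Tead4 at 9.50 against at most 0.419 (2.99). Ctgf, a Yap target, was lower at 2.95 FPKM against 12.05, 8.38 and 14.6 (-1.65), as was Amotl2, another target, at 10.1 against 23.7, 27.5 and 23.3 (-1.21). In the FGF and ERK list 17 of 19 genes were tested, 2 were called higher and 4 lower, and the median was -0.29. Fgf10 was at 12.5 FPKM against at most 0.367 (3.58). Fgf4 was lower at 1.54 FPKM against 5.52, 6.54 and 10.2 (-1.69), and so was the feedback inhibitor Spry2, at 18.4 against 61.8, 67.1 and 54.7 (-1.68). The same direction was seen for Etv1 (-1.42), and Etv4 and Fgf5 (ratios -0.68 and -0.40) lay below the range without a call. So did Dnmt3b (-0.33), which belongs to the formative list and not to this one.

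Among the formative and core pluripotency genes, those called were mostly lower. Of 16 formative genes 15 were tested, 1 was called higher and 4 lower, and the median ratio was -0.51. Of 9 core genes 8 were tested, 1 was called higher (Tdgf1) and 3 lower, at a median of -0.77. Sox2, which pairs with Pou5f1 at pluripotency enhancers, was at 2.73 FPKM on day 4 and at 26.6, 24.98 and 25.7 in fPSCs (25.8 ± 0.797, SD, n = 3), a ratio of -2.84. Utf1 was lower by 2.81 on the log2 scale, with fPSCs at 489 ± 25.2 FPKM (SD, n = 3). Pou3f1 was at 8.29 FPKM against 34.0, 40.0 and 35.4 (-2.01), and Nanog at 34.8 against 75.4, 66.4 and 82.8 (-1.08). Day 4 lay below all 3 passages for each of these. The zinc finger factor Sall2 was also lower, at 15.0 FPKM against 30.5, 35.9 and 40.3 (-1.19). Pou5f1, by contrast, was at 429 FPKM against 493, 462 and 499 (-0.17), and Sall4 was within the range (0.09). Otx2, the homeobox factor of formative epiblast and anterior identity, was called higher at 114 FPKM against 48.9, 48.7 and 40.9 (1.29). Sox4 was at 35.7 FPKM against 23.4, 19.3 and 14.5 (0.90). The other formative genes lay near or slightly below the range without a call, namely Lin28b (-0.51), Zic2 (-0.27), Zic5 (-0.70), Zscan10 (-0.67), Dnmt3a (-0.17) and Grhl2 (-0.04, within the range), and so did the core gene Lin28a (-0.66).

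Of 14 naive genes 4 were tested. Tbx3 was at 28.3 FPKM against 0.138, 0.124 and 0.129 (4.70), and Dppa5a at 12.2 against 0, 0.109 and 0.756 (3.40). Tbx3 is also a mesoderm and endoderm T-box factor. It was at 0.14 and 0.12 FPKM on days 2 and 3, whereas Dppa5a was at 312 and 184 FPKM there. Of the other naive genes Esrrb, Nr5a2, Prdm14 and Dppa3 were at 0.0067, 0, 0.0207 and 0 FPKM on day 4. Of 9 primordial germ cell genes 4 were tested and called higher, 2 of them at 1 FPKM or more on day 4 alone. They were Kit, a receptor (18.8 FPKM against 2.74, 2.49 and 2.56, ratio 2.46), Prdm1 (2.28), Dnd1 (2.27) and Tfap2c (2.16).

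The genes with the largest ratios below fPSCs at 10 FPKM or more were Cntfr and Mt2. Cntfr, a receptor of the ciliary neurotrophic factor family, was at 2.28 FPKM against 34.4, 41.6 and 42.2 (-3.62). Mt2, a metallothionein, was at 9.54 FPKM against 145, 98.3 and 116 (-3.50). The cell cycle kinase Cdk6 was at 3.50 FPKM against 30.9, 35.6 and 47.0 (-3.09), and the integrin chain Itga3, a laminin receptor, at 2.76 against 26.2, 30.9 and 24.04 (-2.89). All 4 were thus low on day 4 and over 20 FPKM in each passage. Chst1, a sulfotransferase (-2.81), Gli3, a transcription factor of Hedgehog signaling (-2.72), and Enpp3, a nucleotide hydrolase (-2.68), followed. Cntfr, Cdk6 and Chst1 were already low on days 2 and 3, Cdk6 at 4.57 and 7.49 FPKM, whereas Mt2 was at 193 and 136 FPKM there. Of the remaining genes of those 12, Rn18s-rs5 derives from ribosomal RNA, at 176 FPKM on day 4 against 1592, 1025 and 1468 (-2.92), so its level also moves with how ribosomal RNA was removed. Yam1 was at 317 FPKM against 940.1, 2489 and 3220 (-2.62), and Lars2, a mitochondrial leucyl-tRNA synthetase, at 25.6 against 168, 115 and 211 (-2.60). Over the other bulk libraries, Rn18s-rs5 ran from 270 FPKM on day 2 of the epiblastoids to 3828 in E6.5 fPSCs P10. Yam1 was at 502 FPKM and Lars2 at 21.3 on day 2, and at 7977 and 363 in E6.5 fPSCs P10. Lars2 was at 17.7 FPKM in CMT P11, below day 4, and was not called once that library was added to the reference. Whether Yam1 and Lars2 move with ribosomal RNA was not tested.

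Metabolic and stress genes were counted in the same way. Of 21 genes of glycolysis and hypoxia 20 were tested, all 20 had a ratio above 0, 10 were called higher and none lower, and the median was 1.01. Pfkl, a phosphofructokinase, was at 187 FPKM against 35.3, 43.2 and 37.2 (2.25). Pgk1 was at 817 FPKM against 251, 241 and 171 (1.90), and Ldha, lactate dehydrogenase, at 2696 against 948, 669.9 and 643 (1.86). Bnip3, a hypoxia target, was at 65.5 FPKM against 25.1, 16.8 and 8.70 (2.01). Other fPSC cultures came near or above these levels. In CMT P11 Bnip3 was at 66.01 FPKM, Pgk1 at 711, Ldha at 1960 and Pfkl at 122. That library is of the same line and, by the study's text, of cryopreserved cells. Bnip3 was not called once CMT P11 was added to the reference. In 46C P24 Pgk1 was at 819 FPKM and Bnip3 at 110. Among retinoic acid genes 4 of 6 tested were called higher and 1 lower, led by Cyp26a1, which degrades retinoic acid, at 101 FPKM against 13.9, 6.24 and 2.13 (3.87), with Crabp1 at 3.18, while Dhrs3 was lower at -1.98. Cholesterol synthesis genes lay near their fPSC levels, with 24 tested, 1 called higher (Pmvk, 66.2 FPKM against 41.3, 46.04 and 9.92) and a median of 0.03. Of 9 p53 targets 1 was called higher (median -0.55), of 10 genes of ER stress 2 were called higher and 2 lower (-0.31), and of 6 immediate early genes tested Egr1 was called lower (1.76 FPKM against 18.2, 10.3 and 5.49).

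**Figure D4:**
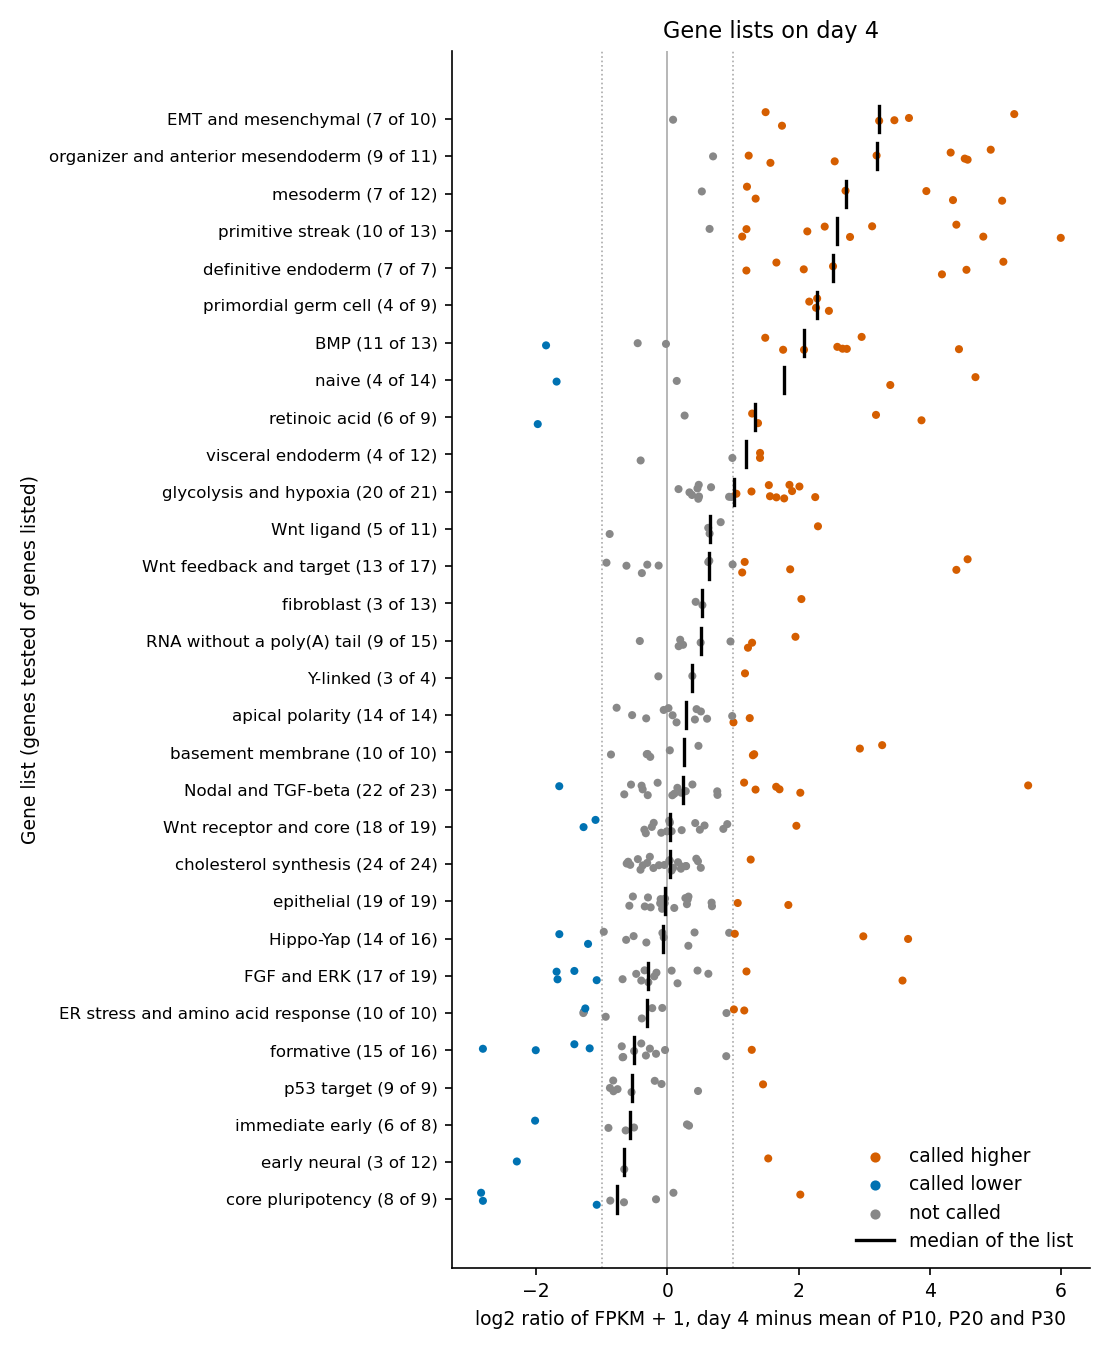
Log2 ratio of FPKM + 1, day 4 minus the mean of P10, P20 and P30 (horizontal), of each tested member of the lists with 3 or more tested genes, ordered by the list's median (black bar), with orange for called higher, blue for called lower and grey for neither. The EMT and organizer lists lead with medians of 3.23 and 3.19, and the core pluripotency list is lowest at -0.77.

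In the libraries that the rule did not use, the levels of the called genes were set side by side, without a test. Several of these libraries differ from day 4 in RNAs without a poly(A) tail, as given above. The 977 genes called higher had a median of 9.08 FPKM on day 4 and of 1.70 to 2.05 in P10, P20 and P30, as follows from the rule. Their median was 2.84 FPKM on day 2, 2.99 on day 3, 2.32 and 2.62 in EpiLCs, 4.49 and 4.33 in EpiSCs, and 4.70 and 3.81 in mESCs. Over the other fPSC libraries it ran from 2.12 in P1 to 4.81 in 46C P24, with CMT P11 at 2.81. In parallel, the 339 genes called lower had a median of 5.76 FPKM on day 4, 11.8 and 10.9 on days 2 and 3 and 16.2 to 18.8 in P10, P20 and P30. In the fPSC libraries outside the rule it was 10.8 to 15.4. All tested genes together had medians of 7.88 to 10.002 FPKM over the 19 libraries.

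The days of the epiblastoids and the fPSC line 46C stood out at single genes. Cer1 was listed at 0 on days 2 and 3, Lhx1 was at 0.05 and 0.01 FPKM and Mesp1 at 0.02 and 0, so these genes were seen on day 4 and not before it. T and Eomes were already at 15.5 and 34.4 FPKM on day 3, near their fPSC levels, and Sox2 was at 26.3 and 16.4 FPKM on days 2 and 3. In fPSCs 46C P24, Foxa2 at 81.9 FPKM, Chrd at 55.3 and Hhex at 38.2 were above day 4. Cer1 at 203 FPKM, Lhx1 at 86.5, Gsc at 56.5, Dkk1 at 28.9, Sox17 at 50.6 and Gata6 at 21.8 lay between P10 to P30 and day 4, and so did Cxcr4 at 28.5, where day 4 was at 231. In that library Mesp1 was at 0.81 FPKM, Myl7 at 4.56, Kdr at 0.44, Fn1 at 8.15 and Snai1 at 1.48, Sox2 at 33.1 and Utf1 at 175. Of other EMT and mesoderm genes there, Cdh2 at 31.2 FPKM, Mmp14 at 14.1, Cdh11 at 2.12 and Pdgfra at 1.47 were above P10, P20 and P30 and below day 4. Twist1 at 0.313, Hand1 at 0.153 and Foxf1 at 0 were not above all 3 passages, and Vim at 68.5 was above day 4. Line 46C was not alone in this. In fPSCs P10 derived from E5.5 and E6.5 epiblasts, Foxa2 (68.0 and 58.8 FPKM) and Chrd (16.1 and 12.4) were above day 4. Cer1 there was at 124 and 56.4 FPKM, below day 4. Chrd was above day 4 in CMT P11 too, at 20.5 FPKM, where Cer1 was at 46.2. In BVSC P14 and ROSAmTmG P12, Foxa2 and Chrd were below day 4. With all 7 long-term fPSC libraries as the reference, 663 genes were called higher and 277 lower. Of these, 587 and 160 were among the 977 and 339, and Foxa2, Chrd, Hhex, Lefty1, Otx2 and Nanog were no longer called.

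The chromatin of fPSCs at P10, which the rule did not use, was read at the start sites of the called genes on mm9. H3K4me3 marks active or poised promoters, and H3K27me3, laid down by Polycomb, marks silent developmental genes. Both are given as the authors' RPKM (reads per kilobase, scaled to the number of mapped reads), averaged over bins of 100 bp within 5000 bp of the start site. The labels list 2 replicates for each mark and for methylation. By the study's methods the ChIP-seq replicates were merged, but 1 file for each measure was used here and it does not say what it pools. The cell line is not given in the sources used here. Of the 11127 tested genes, 9963 have 1 start site. Genes called higher (875 with a start site) had a median H3K27me3 of 0.720, with quartiles of 0.331 and 1.49. Genes not called (8777) had a median of 0.274 and genes called lower (311) of 0.305. Of the genes called higher 24.2% were in the highest 10% of all 19264 promoters, compared with 4.52% of those not called and 5.14% of those called lower. Median H3K4me3 was 1.53, 1.85 and 2.14 in the same order, and the median methylated fraction within 1000 bp was 0.229, 0.184 and 0.162.

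Genes with little RNA in fPSCs carried more of the mark, with a median of 0.758 for genes not called that were under 1 FPKM in all 3 libraries and 0.267 for those at 1 FPKM or more in at least 1. The classes were therefore also set side by side above and below that limit, which does not match their levels on either side of it. Over all genes called higher the median was 1.70 to 2.05 FPKM in P10, P20 and P30. Over all tested genes it was 7.88 to 8.24. The part of level in the differences that remain was not tested. Among genes for which P10, P20 or P30 reached 1 FPKM, which needed no signal on day 4 to be tested, the 604 called higher had a median H3K27me3 of 0.608, the 311 called lower 0.305 and the 8525 not called 0.267, and 17.2%, 5.14% and 4.05% were in the highest 10%. Among genes under 1 FPKM in P10, P20 and P30, 271 called higher had a median H3K27me3 of 1.21, 252 tested but not called 0.758 and 9301 not tested 0.477. The share in the highest 10% was 39.9% and 20.6% in the first and second of these, and 1302 of 9301 were in it among genes not tested. The tested genes under 1 FPKM in fPSCs all passed the filter through day 4 alone, so their values are a description. Genes are not independent replicates, so no p-value is given. Of single genes, Lhx1 had 4.96 RPKM of H3K27me3 and 6.02 of H3K4me3, at percentiles 99.7 and 99.8 of all promoters, and a methylated fraction of 0.00625. Sox17 (4.01 and 3.82), Gata6 (3.80 and 4.72), Hand1 (4.38 and 4.83) and Pdgfra (3.40 and 4.64) likewise carried both marks. By list, 6 of 9 organizer promoters, 6 of 7 of definitive endoderm and all 6 of mesoderm were in the highest 10% for H3K27me3, against none of 13 formative and none of 8 core pluripotency promoters. These lists were not matched for their level in fPSCs, on which the mark depends. Under 1 FPKM in P10, P20 and P30 were 6 of 7 tested mesoderm genes, where 39.9% of genes called higher and 20.6% of those not called were in the highest 10%. So were 2 of 7 of definitive endoderm, but no tested organizer, formative or core gene. Not all genes with large ratios carried both marks. Cer1 had 0.465 RPKM of H3K27me3 and 0.824 of H3K4me3, Lefty2 had 0.229 and 1.30, and their methylated fractions were 0.855 and 0.863. Fgf10 and Dppa5a, with H3K27me3 of 0.235 and 0.395 RPKM, were methylated at 0.911 and 0.881, and Amot, at 0.146 RPKM, at 0.00824. Among genes called lower, Sox2 carried 5.87 RPKM of H3K4me3 with 1.13 of H3K27me3, and Nanog 4.09 with 0.140.

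**Figure D5:**
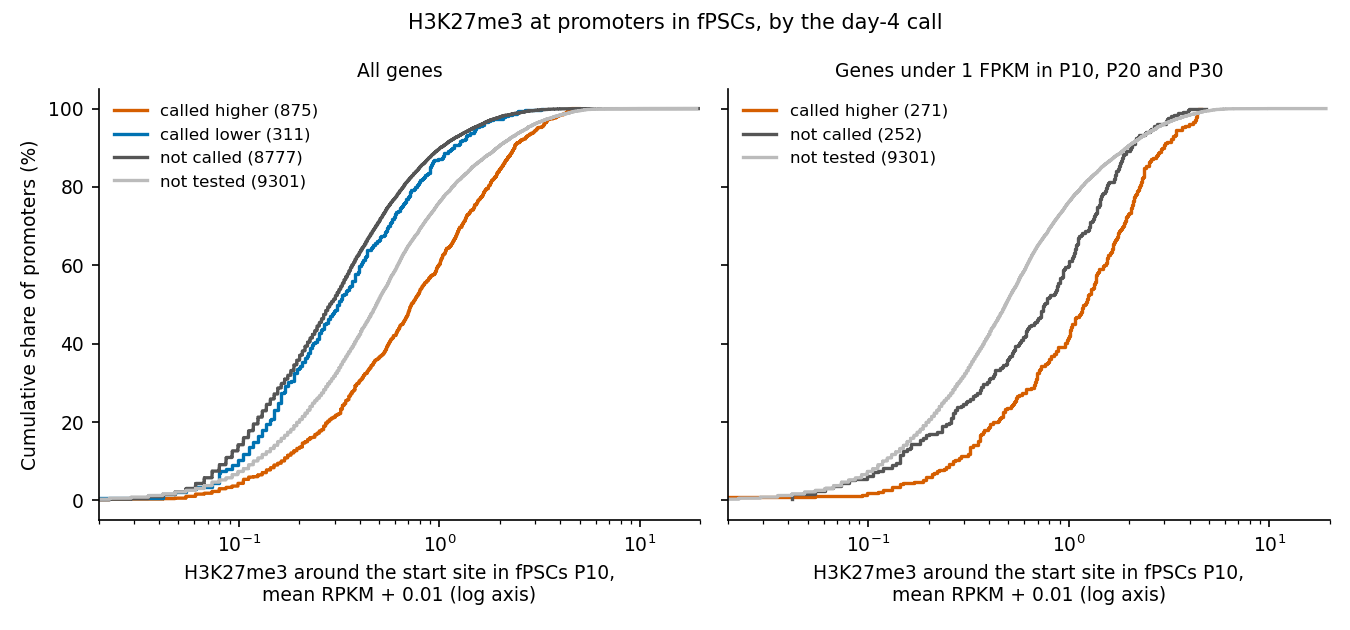
Cumulative share of promoters (vertical, percent) by H3K27me3 within 5000 bp of the start site in fPSCs P10 (horizontal, mean RPKM + 0.01, log axis), for all genes (left) and for genes under 1 FPKM in P10, P20 and P30 (right). The orange curve of genes called higher lies furthest to the right in both panels, with medians of 0.720 and 1.21, and numbers in the keys are promoters. On the right, the tested genes passed the filter through day 4 alone, and the 271 called higher are also in the left curve.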

How the data were processed

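Total RNA was sequenced from 1 library of epiblastoids on day 4 and 3 of fPSCs (P10, P20, P30). The authors deposited FPKM of 19 bulk libraries, made, by the submitters' processing notes and the methods, with TopHat2 2.1.1 on mm9 and Cufflinks 2.1.1. No counts are in the table, so depth is unknown except in relative terms. The authors deposited ChIP-seq as RPKM in 100 bp bins (Bowtie2 2.2.2, mm9) and DNA methylation as a fraction, 0 to 1, in 100 bp windows without coverage. The scRNA-seq data were not used here.

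Of 23608 entries, 4 with repeated names were left out. Ratios were computed in Python with a pseudocount of 1 FPKM, for genes that reached 1 FPKM in any of the 4 libraries. The call rule was tested on simulated data. Start sites came from the NCBIM37 annotation. Members and the 32 gene lists were chosen with earlier results of these data known, so list counts are descriptions. Named were the 12 genes furthest each way at 10 FPKM or more, every member of 8 lists at 3 FPKM or more, and up to 4 called members of each other list. Any other gene is named as an example of its list, after its values were seen. Alternatives changed the pseudocount, filter, scaling, fold limit, window and fPSC libraries. Single values of some list members are not reported here.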

Additional observations from a re-analysis of the deposited data

How the results depend on the processing

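Day 4 has no replicate, so no alternative measures its error. No paired analysis was possible because day 4 is 1 library. Called higher were 977 genes and called lower 339. Without a filter the counts were 977 and 339, with a filter at 3 FPKM 780 and 319, with upper-quartile scaling 1114 and 269, and with median-ratio scaling 886 and 367. A pseudocount of 0.1 gave 1448 and 548, and a ratio limit of 2 gave 189 and 32. Leaving out 1 passage gave 929 to 1020 higher and 339 to 345 lower. Without P30, 8 of the 115 named genes that were called lost the call (Chrd, Ddit4, Eif2s3y, Foxa2, Fzd10, Pmvk, Podxl and Xbp1), without P20 Atf3 lost it, and without P10 none did. Adding CMT P11 gave 837 and 261, and 11 named calls were lost (Ap1m2, Bnip3, Chrd, Ddit4, Eif2s3y, Fzd10, Lars2, Podxl, Sall2, Tcf7l1 and Xbp1). With 7 long-term fPSC libraries 31 named calls were lost, and without 46C P24, an alternative chosen after seeing the data, 16 were lost and Pmaip1 turned from 1.46 to -0.027. In both of these, 11 list genes were called lower rather than 20.

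With a window of 1000 bp, median H3K4me3 of genes called higher and lower was 3.50 and 4.44 and that of genes not called 5.09, so that genes called lower lay below genes not called and not above them as at 5000 bp, and 20.6% of those called higher were in the highest 10% for H3K27me3. With a ratio limit of 2, 46.8% of the genes called higher and 13.8% of those called lower were. FPKM without counts limit what can be said of low genes.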

Other observations

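The called genes were spread over the genome. By RefSeq's gene table, the median ratio per chromosome ran from 0.03 on chromosome 8 to 0.15 on chromosome 9, and the share of tested genes called higher ran from 6.42% on chromosome 4 to 11.46% on chromosome 6. On the X chromosome 36 of 383 tested genes were called higher and 17 lower, at a median ratio of 0.05.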
